A study of Mus musculus with 12 samples.

Results

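The genes described here are the 9 mouse MHC class II and peptide loading genes that have a named probe on the array: H2-Aa, H2-Ab1, H2-DMa, H2-DMb1, H2-DMb2, H2-Oa, H2-Ob, Cd74 and Ciita. They were taken by symbol, through the RefSeq accession that the scanner files give for each probe, and they hold 14 probes of the 41174 on the array and are 9 of 17305 named genes. H2-Eb1 and H2-Ea have no named probe and were not analysed here. Total RNA of hand-picked pancreatic islets, cultured overnight after collagenase digestion, was hybridized in 1 colour to 12 Agilent Whole Mouse Genome 4x44K arrays, with a pool of 3 to 4 mice on each array and n = 3 arrays for each of 4 genotypes. All mice were chow-fed females of a C57BL/6 x Sv129 background, 4 weeks old in the labels and 5 weeks old in the text of the study. WT mice carried both genes intact, PPARγ2KO mice (PPARg2KO in the labels) lacked PPARγ2, an isoform of the nuclear receptor PPARγ, ob/ob mice (OB) lacked leptin and are obese, and POKO mice (DKO) lacked leptin and PPARγ2. PPARγ2 and leptin were lost in the whole animal, so the islets of these mice were also exposed to the changes in the rest of the body. The methods speak of only 2 samples in an unnamed group, and 3 arrays of every genotype were used here.

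MHC class II molecules are pairs of an α and a β chain that show peptides of the endosome to CD4 T cells. H2-Aa and H2-Ab1 code for the chains of I-A, Cd74 for the invariant chain that blocks the groove during transport, H2-DMa with H2-DMb1 or H2-DMb2 for the chaperone that exchanges the remaining invariant chain fragment for peptide, and H2-Oa with H2-Ob for H2-DO, which restrains that chaperone, mainly in B cells. Ciita codes for the co-activator that switches most of the group on together. CIITA does not bind DNA on its own but sits on the RFX, CREB and NF-Y proteins that occupy the X1, X2 and Y boxes before these genes. Most genes of the group, H2-Oa and H2-Ob apart, are constitutive in B cells, dendritic cells and other professional antigen-presenting cells. These genes can be induced by interferon γ in other cells.

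RefSeq promoters of the build GRCm38.p6 were at hand for 6 of the 9 genes (7 promoters), with 250 bases before each start. The 150 bases before the start are printed for the 5 genes with a searched motif in this stretch, because these genes are the ones whose signals are compared array by array below. The bases in capitals match ATTGG (core of the Y box), TGACG (core of the X2 box) or GNNACNGAT (X1 box) on either strand, and each line runs 5′ to 3′ on the strand of the gene.

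H2-Aa, chr17:34287824-34287973, minus strand: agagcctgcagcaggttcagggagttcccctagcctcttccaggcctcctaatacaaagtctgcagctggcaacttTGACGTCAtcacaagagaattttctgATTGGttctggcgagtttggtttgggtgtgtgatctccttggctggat
H2-DMb1, chr17:34153041-34153190, plus strand: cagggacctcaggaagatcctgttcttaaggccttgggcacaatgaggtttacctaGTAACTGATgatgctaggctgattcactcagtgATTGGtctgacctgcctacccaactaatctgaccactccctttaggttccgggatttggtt
H2-DMb2, chr17:34145099-34145248, plus strand: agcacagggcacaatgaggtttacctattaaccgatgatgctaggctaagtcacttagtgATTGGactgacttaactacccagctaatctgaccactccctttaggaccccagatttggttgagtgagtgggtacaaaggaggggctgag
H2-Oa, chr17:34092229-34092378, plus strand: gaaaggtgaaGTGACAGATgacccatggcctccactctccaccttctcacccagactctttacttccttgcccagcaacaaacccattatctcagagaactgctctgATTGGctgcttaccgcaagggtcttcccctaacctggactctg
H2-Ob, chr17:34238755-34238904, plus strand: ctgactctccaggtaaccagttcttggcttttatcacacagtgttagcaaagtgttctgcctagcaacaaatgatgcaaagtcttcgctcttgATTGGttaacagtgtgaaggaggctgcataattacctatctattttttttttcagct

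ATTGG was found in the gene's own direction within 250 bases before all 6 genes searched, against 19.7% of all 32851 promoters of the table, or 33.8% on either strand. The printed genes were chosen for holding a motif, so their own count says nothing more. The first base of ATTGG lies 43 bases before the start of H2-Oa, 48 before H2-Aa, 57 before H2-Ob, 61 before H2-DMb1 and 90 before H2-DMb2. H2-DMa, with 2 promoters in the table, has ATTGG 198 bases before 1 of its starts, outside a stretch of that length, and is not printed. TGACG was found before H2-Aa alone, where the matches on both strands overlap in TGACGTCA, and 17.8% of all promoters hold it. GNNACNGAT was found before H2-DMb1 and H2-Oa, against 6.53% of all promoters. A match describes letters in this window and not a bound site.

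Signals are Agilent processed signals after quantile normalization, on the log2 scale, with the brightest named probe for each gene. Values of different genes come from different probes and cannot be set against each other. The scanner software called 54.3 to 64.9% of the spots of an array well above background. The targeted genes were checked first. Pparg was 8.85 to 8.98 in WT, 8.54 to 9.77 in ob/ob, 6.60 to 7.44 in PPARγ2KO and 6.41 to 7.14 in POKO, so the arrays labelled as lacking PPARγ2 did not overlap with the others. Where this probe lies with respect to the deletion is not given in the sources used here. Lep was not well above background on any array and checks nothing here. The insulin genes Ins1 and Ins2 were well above background on all 12 arrays, with Ins1 between 17.07 and 18.62, and so were all 8 acinar digestive enzyme genes of a marker list, which the exocrine pancreas expresses. Each slide held 1 array of each genotype, and the slide is the replicate number. A genotype always took the same place on its slide, so that place and genotype cannot be told apart.

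The array PPARγ2KO replicate 2 stood apart from the other arrays of its genotype in all 9 genes. Its signals were 1.73 (H2-DMa) to 5.13 (H2-Oa) log2 units above the mean of PPARγ2KO replicates 1 and 3, and it ranked between 1 and 5 of the 12 arrays for every gene. Its Pparg signal, 7.27, was that of its label. The same array stood apart in leukocyte markers. The summed normalized signal of the 6 pan-leukocyte markers was 6290 on it, against 406 and 690 on replicates 1 and 3. For the 10 B cell markers it was 3100 against 140 and 165, and for the 10 T cell markers 1610 against 704 and 294. On replicate 1 the T cell sum is mostly Cd3e, which was 9.02 there, 8.45 on replicate 2 and 6.44 on replicate 3. The islet endocrine markers had sums of 1120000, 1140000 and 1300000 on replicates 2, 1 and 3. These sums are mostly Ins2, Ins1 and Gcg, which lie near the top of the signal range. Quantile normalization gives every array the same set of top values, so these sums could hardly show a gap. Of the dimmer endocrine genes, Chga and Sst on replicate 2 lay between replicates 1 and 3. On that array Ppy lay above both of the others and Slc2a2 below both. Results that rest on this array are given with and without it. The array was singled out by its signals in these same 9 genes, so leaving it out narrows their spread. Counts and p-values without it show what depends on this array and are no further support.

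H2-Aa and H2-Ab1, the chains of I-A, were low in WT and high in both obese genotypes. H2-Aa (NM_010378) had signals of 5.65, 5.54 and 6.16 in WT, 5.60, 8.53 and 5.60 in PPARγ2KO, 8.81, 8.51 and 8.05 in ob/ob, and 8.54, 8.27 and 7.63 in POKO. The 6 obese arrays and PPARγ2KO replicate 2 all lay above the other 5, with a gap of 1.47 log2 units between the lowest obese array and the highest lean one outside that replicate. H2-Ab1 (NM_207105) had signals of 8.54, 8.55 and 9.08 in WT, 9.05, 11.57 and 8.69 in PPARγ2KO, 11.82, 11.54 and 10.96 in ob/ob, and 11.63, 11.32 and 10.54 in POKO. The arrays split in the same way. The invariant chain gene Cd74 (NM_001042605) had 9.09, 9.39 and 10.01 in WT, 9.72, 12.14 and 9.60 in PPARγ2KO, 12.72, 12.63 and 12.09 in ob/ob, and 12.65, 12.26 and 11.42 in POKO. WT islets thus held a measurable signal of all 3 genes on every array, below all obese arrays.

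The chaperone genes ran likewise. H2-DMa (NM_010386), the α chain of H2-DM, had signals of 5.71, 5.31 and 5.82 in WT, 5.84, 7.39 and 5.49 in PPARγ2KO, 7.13, 7.32 and 7.27 in ob/ob, and 7.25, 6.79 and 6.68 in POKO. Without PPARγ2KO replicate 2, its gap between obese and lean arrays was 0.84 log2 units, the narrowest of the 5 genes that were well above background on all 12 arrays. H2-DMb1 (NM_010387), a β chain of H2-DM, had 5.41, 5.55 and 5.83 in WT, 5.55, 8.89 and 5.88 in PPARγ2KO, 8.90, 8.72 and 7.72 in ob/ob, and 8.52, 8.18 and 7.55 in POKO. For H2-DMb2 (NM_010388), the other β chain, the signals were 1.22, 1.23 and 1.22 in WT, 1.23, 5.39 and 1.92 in PPARγ2KO, 5.68, 5.54 and 3.85 in ob/ob, and 5.40, 4.25 and 3.73 in POKO. H2-DMb2 stayed below the limit for a signal well above background on all WT arrays and passed it on PPARγ2KO replicate 2 alone of its genotype. H2-DMb1 and H2-DMb2 are neighbouring and closely similar genes, so that their probes may share targets and the split of signal between them is uncertain.

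The genes of H2-DO and the co-activator were below background in WT. H2-Oa (NM_008206), the α chain, had signals of 1.71, 1.08 and 3.34 in WT, 3.08, 8.38 and 3.43 in PPARγ2KO, 8.19, 8.12 and 7.04 in ob/ob, and 7.77, 6.88 and 6.64 in POKO. PPARγ2KO replicate 2 was the highest of the 12 arrays for this gene. H2-Ob (NM_010389), the β chain, had 1.97, 2.20 and 1.89 in WT, 1.91, 6.13 and 1.85 in PPARγ2KO, 6.46, 6.35 and 5.21 in ob/ob, and 6.37, 5.53 and 5.02 in POKO. Ciita (NM_007575) had 2.71, 1.5 and 3.00 in WT, 3.00, 6.63 and 3.23 in PPARγ2KO, 6.97, 6.95 and 5.52 in ob/ob, and 7.05, 5.89 and 5.41 in POKO. The probes of all 3 genes counted as well above background on the 6 obese arrays but on none of WT, and H2-Ob and Ciita were so on PPARγ2KO replicate 2 alone of its genotype. In every one of the 9 genes the genotype means stood in the order ob/ob, POKO, PPARγ2KO, WT, and between neighbours in that order no gene passed the test below. Without PPARγ2KO replicate 2 the PPARγ2KO means of H2-Aa and H2-Ob lay below WT, by -0.18 and -0.14 log2 units, and 5 genes passed between POKO and PPARγ2KO.

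**Figure D1:**
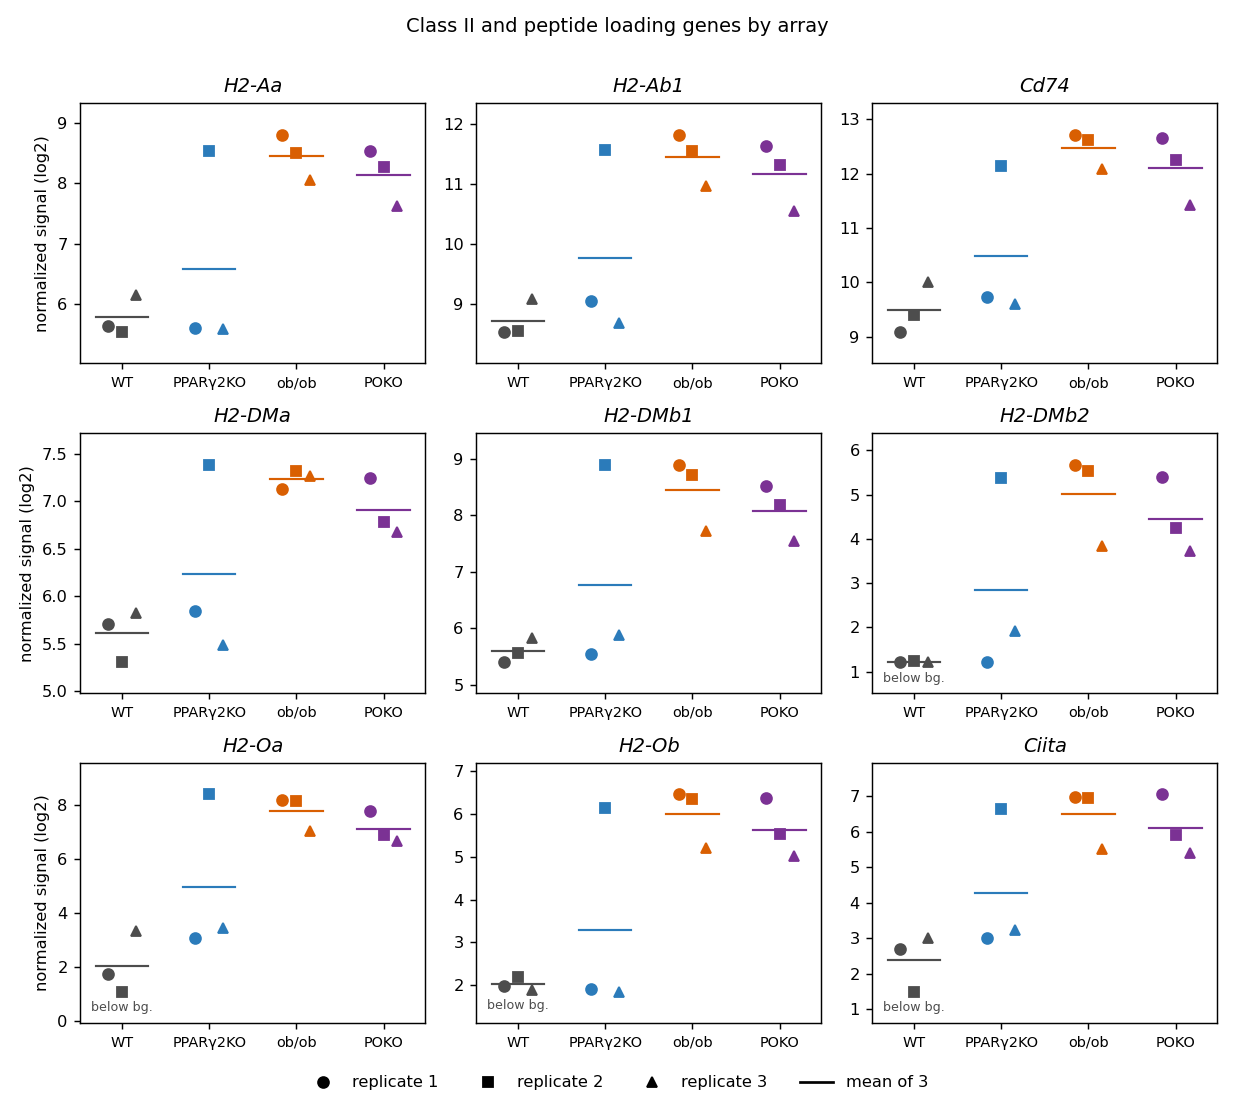
Normalized log2 signal (y axis, a different range in each panel) of the 9 genes on the 12 arrays, by genotype, with 1 symbol for each replicate and a bar for the mean of 3 arrays. "Below bg." marks genotypes in which the probe was not well above background on any array. In each panel the square of PPARγ2KO stands with the obese arrays, and its circle and triangle with WT.

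In ob/ob vs. WT, which asks what islets of leptin-deficient mice express differently, all 9 genes rose. They passed an adjusted p of at most 0.05 and a log2 fold change of at least 1 (limma fit on all 12 arrays, Benjamini-Hochberg over all probes, n = 3 arrays per genotype), against 4.51% of all named genes that passed upwards. H2-Aa was 5.78 ± 0.33 (SD) in WT and 8.46 ± 0.38 in ob/ob, a log2 fold change of 2.67 with a standard error of 0.69 (adjusted p = 0.0417). H2-Ab1 rose by 2.72 (adjusted p = 0.0373) and Cd74 by 2.98 (adjusted p = 0.0284). The chaperone chains H2-DMa and H2-DMb1 rose by 1.62 (adjusted p = 0.0408) and 2.85 (adjusted p = 0.0461), the first being the smallest change among the 5 genes measured in WT. The probes of Ciita, H2-Oa, H2-Ob and H2-DMb2 were not well above background in WT, so their folds are lower limits, set by the dimmest signals that counted as above background on the WT arrays. In ob/ob the signal of Ciita was higher by at least 6.36-fold (adjusted p = 0.0331), that of H2-Oa by at least 15.7-fold (adjusted p = 0.0301), that of H2-Ob by at least 4.57-fold (adjusted p = 0.0388) and that of H2-DMb2 by at least 2.32-fold (adjusted p = 0.0416). The ob/ob arrays lay above the WT arrays without overlap in 9 of 9 genes, as in 13.9% of all named genes. Of the other 5 probes of these genes 4 passed as well, against 5.47% of all probes. The second H2-Oa probe, not well above background in WT, did not (adjusted p = 0.0775).

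Within each slide the difference of ob/ob and WT was positive in 9 of 9 genes. The median gene differed by 3.63 log2 units on slide 1, by 3.23 on slide 2 and by 2.08 on slide 3. With the slide as a block 8 of 9 genes passed, against 6.5% of all named genes in either direction, and H2-DMa did not (adjusted p = 0.0564). The number of genes that passed depended on single arrays, and with all 12 arrays the adjusted p-values lay between 0.0284 and 0.0461. It was 0 of 9 without WT replicate 1, WT replicate 2, ob/ob replicate 2 or ob/ob replicate 3, and 2 of 9 without ob/ob replicate 1. The share of all named genes that passed in either direction fell too, from 6.68% to between 0.341% and 0.89%, when any of the first 4 arrays was left out, and was 8.58% without ob/ob replicate 1. Although they are no part of the comparison, leaving out POKO replicate 1, 2 or 3 left 3, 2 and 2 of 9 genes, through the shared estimate of the spread. The share of all named genes was then 4.02%, 4.01% and 3.64%. Without PPARγ2KO replicate 2 all 9 passed, with adjusted p-values from 0.00349 to 0.0109, as did 6.97% of all named genes. All 189 fold changes of the 9 genes under the 21 alternatives that give them were positive, with adjusted p-values of at most 0.133.

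In POKO vs. WT, which asks what changes in obese islets without PPARγ2, all 9 genes had higher means in POKO and none passed. The log2 fold changes of the 5 genes measured in WT ran from 1.29 (H2-DMa) to 2.61 (Cd74), and the adjusted p-values of all 9 from 0.113 to 0.175. Among all named genes 0.179% passed upwards. At an unadjusted p below 0.05 (limma) 9 of 9 genes were higher, as were 8.71% of all named genes, and 9 of 9 did not overlap between the genotypes, as did 12% of all named genes in this direction. H2-Aa was 8.15 ± 0.46 in POKO, with a log2 fold change of 2.36 (95% interval 0.80 to 3.93). The limits for the genes below background in WT were 4.93-fold for Ciita, 9.75-fold for H2-Oa, 3.54-fold for H2-Ob and 1.57-fold for H2-DMb2. The differences within a slide were positive for 9 of 9 genes on all 3 slides.

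The call in POKO vs. WT turned on the PPARγ2KO array that stood apart, although no PPARγ2KO array is compared. Its distance from replicates 1 and 3, for which it was singled out, enters the spread that all genotypes share. Without it the fold changes were the same and 9 of 9 genes passed, with adjusted p-values from 0.00706 (H2-Ob) to 0.0324 (H2-DMb2), while the share of all named genes that passed in either direction went from 0.191% to 1.88%. With a weight for each array 9 of 9 passed as well (4.89% of all named genes), and in a fit on the POKO and WT arrays alone 3 of 9 did (1.14%).

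**Figure D2:**
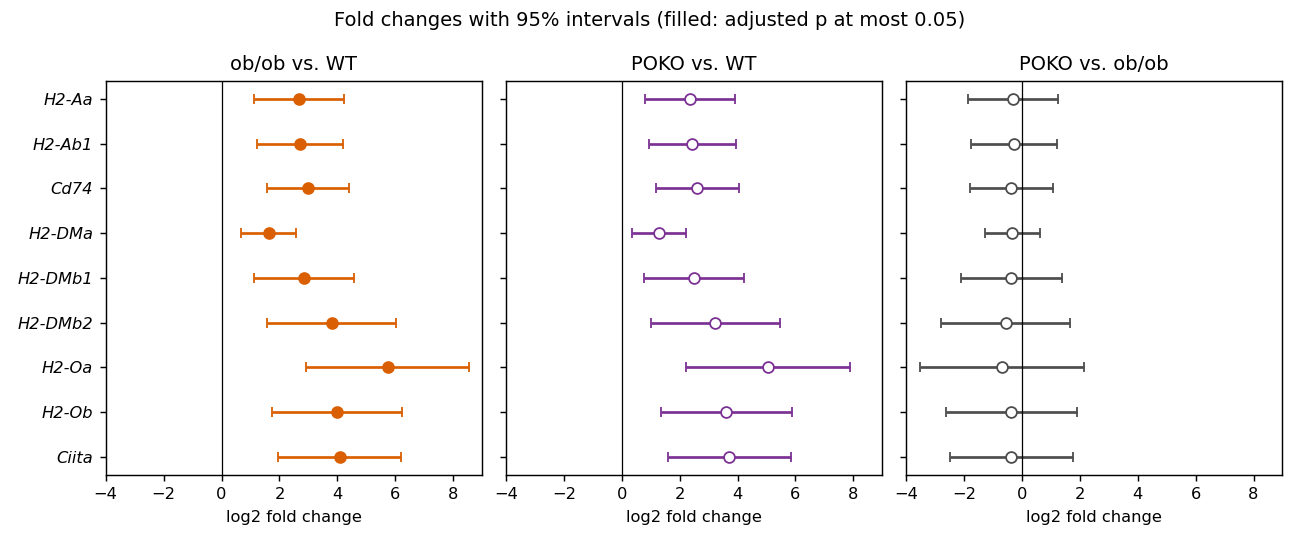
Log2 fold change (x axis) of each gene with its 95% interval in POKO vs. ob/ob and in each obese genotype vs. WT, n = 3 arrays per genotype; filled circles passed an adjusted p of at most 0.05. The intervals of both comparisons with WT lie above 0 for all 9 genes and those of POKO vs. ob/ob include 0 for all 9.

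POKO vs. ob/ob asks directly what the loss of PPARγ2 changes in obese islets. All 9 genes had lower means in POKO, by 0.28 (H2-Ab1) to 0.69 (H2-Oa) log2 units, and none passed (limma, lowest adjusted p 0.885), as 0% of all named genes did. At a looser adjusted p limit of 0.3 the counts were 0 of 9 and 0.0173%. No gene of the 9 was below an unadjusted p of 0.05, against 11.8% of all named genes. The arrays of the genotypes overlapped in 9 of 9 genes, while POKO lay below ob/ob without overlap in 10.4% of all named genes. The intervals were wide, as for H2-DMa, with a log2 fold change of -0.33 (95% interval -1.27 to 0.61), for Ciita, with -0.37 (-2.49 to 1.75), and for Cd74, with -0.37 (-1.80 to 1.06). A difference of 2-fold in either direction was inside the interval of 8 of the 9 genes, and for H2-DMa a fall of 2-fold was. Within slides, POKO was below ob/ob in 7 of 9 genes on slide 1 and in 9 of 9 on slides 2 and 3. The 9 genes passed in ob/ob vs. WT but not with POKO in place of ob/ob, and this test did not show a difference between the obese genotypes.

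In PPARγ2KO vs. WT, the loss of PPARγ2 in lean islets, the means of 9 of 9 genes were higher in PPARγ2KO, by 0.62 (H2-DMa) to a fitted 2.92 (H2-Oa, below background in WT) log2 units, and none passed (limma, lowest adjusted p 0.523). H2-Oa alone was higher at an unadjusted p below 0.05, against 4.55% of all named genes. Of all named genes 0% passed, and at a looser limit of 0.2, 0.0925% of all named genes and 0 of 9 did. Without PPARγ2KO replicate 2 the differences ran from -0.18 (H2-Aa) to 1.21 (H2-Oa), with a median of 0.14 in place of 1.18, and 7 of 9 were positive. On slide 2, which holds that replicate, PPARγ2KO was above WT by 2.08 to 7.30 log2 units. On slide 1 the differences were -0.06 to 1.36 and on slide 3 they were -0.56 to 0.70.

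**Figure D3:**
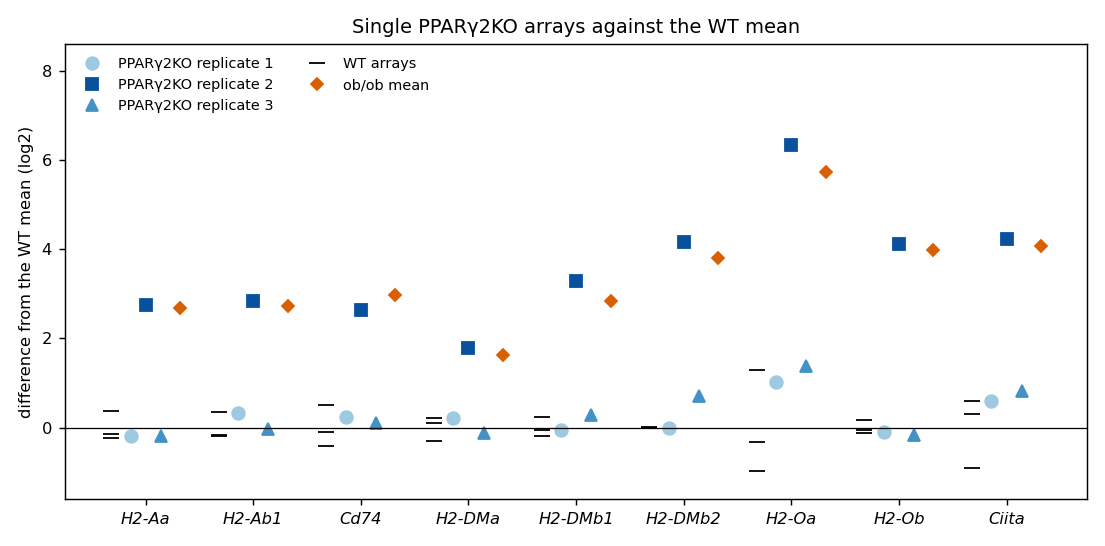
Signal of each PPARγ2KO array minus the mean of the 3 WT arrays (y axis, log2 units) for the 9 genes, with the WT arrays as dashes and the ob/ob mean as a diamond. Replicate 2 lies near the ob/ob mean in all 9 genes, and replicates 1 and 3 lie near 0 except for H2-Oa, H2-DMb2 and Ciita, whose WT probes were below background.

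The comparisons of obese with PPARγ2KO islets rest on the same array. In ob/ob vs. PPARγ2KO 9 of 9 genes were higher in ob/ob, by 1.00 (H2-DMa) to 2.82 (H2-Oa), and 0 passed (limma), against 0.00578% of all named genes. At an unadjusted p below 0.05, 6 of 9 were higher, against 10.9%. Without PPARγ2KO replicate 2, 7 of 9 passed, all but Ciita (adjusted p = 0.0629) and H2-DMb2 (adjusted p = 0.0528), against 1.04% of all named genes in either direction. In POKO vs. PPARγ2KO, leptin loss without PPARγ2, 9 of 9 were higher in POKO, by 0.67 (H2-DMa) to 2.34 (H2-Ob), and 0 passed (limma), as 0% of all named genes did. At an unadjusted p below 0.05, 3 of 9 were higher, against 5.58%, and at a looser limit of 0.2, 0 of 9 passed, against 0.237%. Without that array 5 of 9 passed (Cd74, H2-Aa, H2-Ab1, H2-DMb1 and H2-Ob), against 0.728%. The interaction compares the effect of PPARγ2 loss in obese islets (POKO minus ob/ob) with that in lean ones (PPARγ2KO minus WT). It was negative in 9 of 9 genes, from -3.60 (H2-Oa) to -0.96 (H2-DMa), and 0 passed (limma), as 0% of all named genes did. At an unadjusted p below 0.05 the counts were 0 of 9 and 16.1% of all named genes. Without the array it ran from -1.89 to -0.13, and 0 passed.

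The genes moved together array by array, beyond the division into genotypes. In POKO the signals of 9 of 9 genes were highest on replicate 1 and lowest on replicate 3. In ob/ob replicate 1 was the highest in 8 of 9 genes and replicate 3 the lowest in 8 of 9, the exception in each being H2-DMa. Both obese genotypes thus shared this order, the replicate number is also the slide, and a part of the slide in it was not tested. B cell markers followed the same order in part. Of the 9 B cell markers well above background on all 3 arrays, ob/ob replicate 3 was the lowest in 6 and POKO replicate 3 in 9. Other B cell markers departed from the order, with ob/ob replicate 3 the highest in 3 and ob/ob replicate 1 the lowest in 2. Macrophage markers followed it in part too, and of 8 such markers ob/ob replicate 1 was the highest in 7 and POKO replicate 3 the lowest in 8. They departed from it elsewhere, with POKO replicate 2 the highest in 6, and ob/ob replicate 2 the lowest in 4 and replicate 3 in 3. All 6 pan-leukocyte markers were highest on POKO replicate 1, as were 6 of 9 T cell markers. In ob/ob 4 of the 6 pan-leukocyte markers were highest on replicate 3, against the order of the class II genes. T cell markers ran otherwise on other arrays. Among 9 T cell markers ob/ob replicate 3 was the highest in 9, with a median of 0.78 log2 units above the mean of the genotype, where the class II genes had a median of -0.73. On POKO replicate 2 the median T cell marker was -1.36 and the median class II gene -0.11 from the mean.

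**Figure D4:**
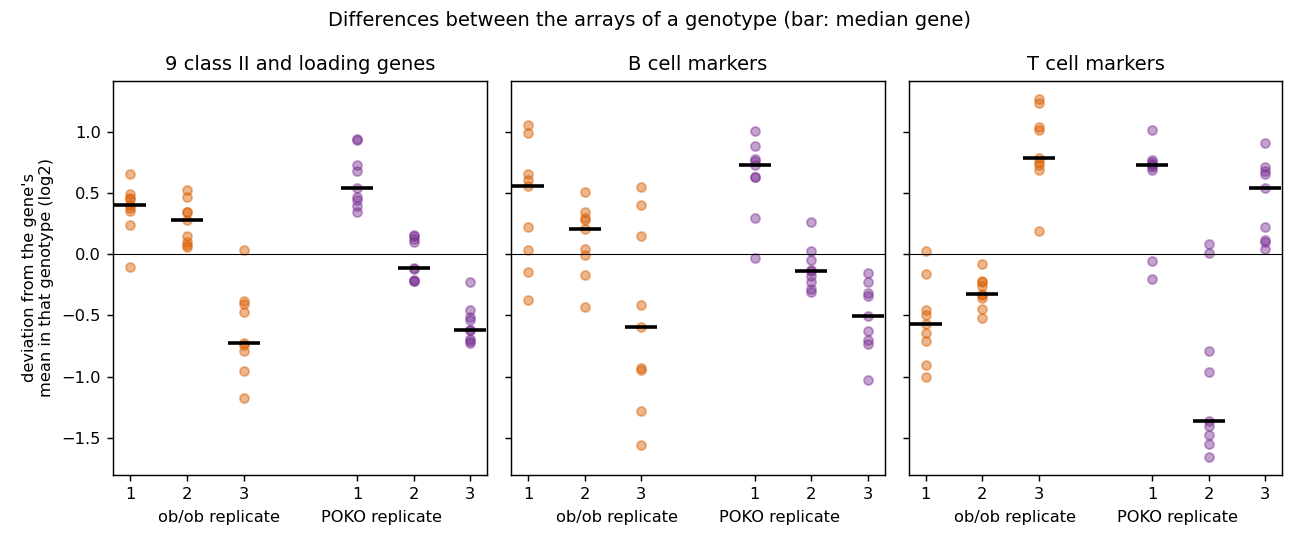
Deviation of each gene's log2 signal from its mean over the 3 arrays of the genotype (y axis), for the 9 genes and for the B and T cell markers well above background on all 3 arrays, with 1 point a gene and a bar at the median gene. On ob/ob replicate 3 the class II genes lie at a median of -0.73 and the T cell markers at 0.78.

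Among the 10 named genes whose signals were most like the mean of H2-Aa and H2-Ab1 over the 12 arrays, by Pearson's r among 13028 genes above background in at least 1 genotype, were Ly86 (r = 0.994), Fcrla (0.993), Fcmr (0.988), Hvcn1 (0.987), Cd79b (0.986), Pou2af1 (0.985), A530032D15Rik (0.981), Cd300lf (0.981) and Spib (0.978). Cd79b codes for a chain of the B cell receptor complex, and Pou2af1 and Spib for transcription regulators of B cells. The cell types that express the others, among them Ly86 and Cd300lf, were not examined here. The list can therefore not be read as one of B cells alone. The 12 points share genotype, slide and the array that stood apart. After the mean of each genotype was taken off, r was 0.942 to 0.985 for these 9 genes. PPARγ2KO replicate 2 was still among the points. It lay 2.93 (H2-Aa) and 2.70 (H2-Ab1) log2 units above the mean of replicates 1 and 3. Any gene high on that array gets a high r, so these values are no further support. Among the class II genes themselves r with that mean was 0.993 for Cd74, 0.99 for H2-DMb1, 0.989 for H2-Ob, 0.977 for Ciita and H2-Oa, 0.975 for H2-DMb2 and 0.971 for H2-DMa. Cd79b was 4.34 to 5.67 in WT, 4.54 and 5.90 on PPARγ2KO replicates 1 and 3, 10.99 on replicate 2, 9.87 to 11.45 in ob/ob and 9.72 to 11.31 in POKO, so that its arrays split as those of H2-Aa did.

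Markers of leukocytes moved with the class II genes in ob/ob vs. WT, where the median over all named genes was -0.06. Of 6 pan-leukocyte markers 5 passed upwards, with a median log2 fold change of 4.13, and Ptprc, the leukocyte common antigen CD45, rose by 4.37. Of 10 B cell markers 5 passed, with a median of 2.96, among them Ms4a1, the gene of CD20 (at least 19.6-fold, not well above background in WT), and Cd79b (5.70). Of 10 T cell markers 7 passed, with a median of 3.97, and Cd3d, a chain of the T cell receptor complex, rose by 6.42 (well above background on 1 of 3 WT arrays). Cd3e, another chain of that complex, was 8.08 to 8.33 in WT and 6.09 to 7.46 in ob/ob and did not pass (log2 fold change -1.48, adjusted p = 0.118). Of 8 dendritic cell markers with a probe 2 passed, Ccr7 and Itgae, both of which T cells also express, with a list median of 0.57, and the defining marker Itgax did not (0.71, adjusted p = 0.338). Of 10 macrophage markers C1qa alone passed (1.34), with a list median of 0.98, and Adgre1, a receptor that marks macrophages, did not (0.42, adjusted p = 0.615). Of 5 plasma cell markers Mzb1 passed (3.89), with a list median of 0.49.

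The summed signals of the B cell, pan-leukocyte, T cell, macrophage and dendritic cell lists were higher on all obese than on all WT arrays, and that of the plasma cell list was lower, with 12700 to 13700 in WT, 6660 to 10300 in ob/ob and 9650 to 11600 in POKO. The plasma cell sum is mostly that of its bright genes Sdc1 (mean 12.62 in WT, 11.24 in ob/ob and 12.21 in POKO) and Xbp1 (12.69, 12.28 and 12.38), which were lower. The other 3 of its 5 genes had higher means in both obese genotypes. Among them were Mzb1 (4.36, 8.25 and 8.04) and Jchain (2.44, not well above background, 6.97 and 7.02). The B cell sum was 130 to 168 in WT, 1460 to 4090 in ob/ob and 1310 to 3770 in POKO, and the pan-leukocyte sum was 360 to 527, 7110 to 8760 and 5060 to 9860. The T cell sum was 455 to 476, 1150 to 3120 and 673 to 2150. In WT it is mostly Cd3e (mean 8.22 in WT, 6.74 in ob/ob and 7.39 in POKO), whose means were lower in both obese genotypes. The macrophage sum was 758 to 1540 in WT, 2250 to 3220 in ob/ob and 2010 to 3820 in POKO, and the dendritic cell sum was 241 to 331, 601 to 1600 and 498 to 1180. On the obese arrays the dendritic cell sum is mostly Ccr7 (mean 6.19 in WT, 9.25 in ob/ob and 9.04 in POKO), which T cells also express. That sum therefore says little about dendritic cells. A list of lymph node stroma and high endothelial venule markers had sums of 376 to 746 in WT. Its sums were 3470 to 5730 in ob/ob and 2290 to 4220 in POKO. In ob/ob vs. WT 2 of its 9 genes passed, Fcer2a, which the B cell list also holds, and Ltb, a cytokine gene of lymphocytes. On the obese arrays this sum is mostly Ltb (mean 8.27 in WT, 11.80 in ob/ob and 11.35 in POKO). It therefore says little about stroma or venules. Glycam1, a venule marker of the list, was not well above background in WT and did not pass. Its means were 6.09 in ob/ob and 6.56 in POKO. Of the 9 genes 7 had higher means in ob/ob than in WT and 2 lower ones. Of 5 endothelial markers 2 passed upwards and of 5 duct markers 2, Krt19 and Cftr, fell by 1.57 and 1.33. None of 8 acinar and 7 islet endocrine markers passed. The 8 acinar genes, Ins1, Ins2 and Gcg lie near the top of the signal range. Quantile normalization gives every array the same set of top values, so these genes could hardly show a change. In islets taken as a whole, more cells that express class II genes and more class II RNA in each cell cannot be told apart, and the part of these cells in the class II signals was not tested.

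The lists of genes around the class II pathway did not all move alike in ob/ob vs. WT. Among the enzymes that prepare antigen and cut the invariant chain, 1 of 7 passed, Ctss, the cathepsin that trims the invariant chain in antigen-presenting cells, which rose by 2.00 (adjusted p = 0.0361). The others ran from 0.49 (Lgmn) to -0.64 (Ctsd) and -0.91 (Ctsl, the cathepsin with that role in thymic epithelium), and the median of the list was -0.08. None of the 7 genes for the proteins of the X and Y boxes passed (limma, 1 at an unadjusted p below 0.05), with a median of -0.18, from Rfx5 (0.47) and Creb1 (0.11) to Nfyc (-0.34) and Rfxank (-0.39). Of 10 genes that induce Ciita or act in interferon γ signalling 4 passed, among them Irf4 (not well above background in WT, and too dim in ob/ob to set a lower limit of its fold), Irf8 (1.58) and Irf1 (1.18), with a median of 0.94. Of these 10 genes 9 had higher means in ob/ob, 6 of them at an unadjusted p below 0.05 (limma), against 16.1% of all named genes. Ifng itself, below background in WT and above it on 2 of 3 ob/ob arrays, did not pass (adjusted p = 0.0684), and Ifngr2, a chain of its receptor, and Jak1, a kinase bound to that receptor, had -0.17 and 0.14.

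Of 9 genes of co-stimulation and class II turnover 2 passed, Cd83 (2.14), a surface protein that slows the turnover of class II, and Icosl (1.45), a ligand of co-stimulation, with a median of 1.42. Cd86, the ligand of CD28, was not well above background in WT and did not pass (at least 2.30-fold, adjusted p = 0.0619), and Cd80, the other ligand, was not well above background in either genotype. Cd4, the co-receptor that binds class II, had -0.11. Of 6 class I pathway genes that lie within the class II region 2 passed, the immunoproteasome subunits Psmb9 (1.96) and Psmb8 (1.76). All 6 were higher at an unadjusted p below 0.05 (limma), with a median of 0.89, against 16.1% of all named genes. The transporter chain gene Tap1 had 0.88 (adjusted p = 0.0613) and the class I heavy chain gene H2-K1 0.74. In POKO vs. WT none of the genes in these pathway lists and the marker lists passed (limma). At an unadjusted p below 0.05, 6 inducers, 2 processing enzymes, 4 co-stimulation and 4 class I genes were higher and no box protein gene was, against 8.71% of all named genes. Of the markers, 8 of 10 B cell, 8 of 10 macrophage, 7 of 10 T cell, 6 of 6 pan-leukocyte, 4 of 5 endothelial, 3 of 9 stroma, 2 of 8 dendritic cell, 2 of 5 plasma cell and 1 of 7 islet endocrine ones were higher at that limit. The medians were 0.15 for the processing enzymes, -0.13 for the box proteins, 0.75 for the inducers, 0.91 for co-stimulation and 0.75 for the class I genes.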

How the data were processed

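Scanner files of 12 Agilent 4x44K arrays, hybridized in 1 colour, were used. Per the file headers and the methods, the authors read the spots with Agilent Feature Extraction 10.1.1.1, and the deposited processed signal is a background-subtracted intensity with no scaling between arrays. The deposited series table holds the authors' normalized log2 values, which served as an alternative. Here the 43379 spots that are not controls were normalized by quantiles, 919 outlier spots were left out, and log2 values of spots that share a probe were averaged. One limma 3.58.1 fit (R 4.3.3) with genotype as the only factor gave 6 comparisons and the interaction, with Benjamini-Hochberg adjustment over 41174 probes. A gene passed at an adjusted p of at most 0.05 with a log2 fold change of 1 or more in size, by its named probe with the highest mean signal. The methods also name the array as a blocking variable, which cannot be fitted with 1 sample an array.

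Probes were named by RefSeq accession, which gave 25097 probes a symbol. A probe below background on all arrays of a genotype gives a lower limit of the fold, against the lowest signal counted as above background on those arrays (2.58 to 4.04 on the log2 scale) or the probe's own, if higher. All 9 genes and the genes of the lists were examined, and the text names list genes that passed, defining markers, the 2 highest and 2 lowest of a pathway list, the targeted genes and the 10 genes most alike to H2-Aa and H2-Ab1, of which a few are not reported here. The members and lists were chosen with earlier results of these data known. The labels do not say that the pools share no mice, so p-values measure the spread between these arrays, whose number limits the precision. The fit was tested on simulated data. Alternatives were scaling to the 75th percentile, normexp background correction with an offset of 50, quantiles of log2 values, a filter on dim probes, outlier spots kept, the authors' values, a fit on the compared genotypes, a replicate block, array weights, no fold criterion, any probe of a gene, looser adjusted p limits used by the study for some comparisons (0.2 and 0.3), and each array left out. Promoters came from RefSeq tables of GRCm38.p6, and the array design names another build, so no gene coordinates are given.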

Additional observations from a re-analysis of the deposited data

Results flagged for a closer look

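H2-Oa is given here because, alone among the 9 genes by their brightest probes, it had every PPARγ2KO array on one side of the WT mean and every POKO array on the opposite side of the ob/ob mean. The means of all 9 genes were higher in PPARγ2KO than in WT and lower in POKO than in ob/ob. All 3 PPARγ2KO arrays lay above the WT mean, by 2.92 log2 units on average, and all 3 POKO arrays lay below the ob/ob mean, with a log2 fold change of -0.69. The test of that difference, the interaction, gave -3.60 with an adjusted p of 0.398 (limma), which did not pass, and -1.89 without PPARγ2KO replicate 2. The WT signals of H2-Oa did not count as well above background. The second H2-Oa probe did not show the pattern in all arrays.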

How the results depend on the processing

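The fold changes in POKO vs. ob/ob were negative in 188 of 189 values under the alternatives, and no call changed direction. Normexp background correction, whose offset of 50 compresses dim signals, left 2 of 9 genes in ob/ob vs. WT (1.66% of all named genes). A fit on the compared genotypes alone gave 3 genes in POKO vs. WT and array weights 9. With single arrays left out the counts ran from 0 to 9 in both comparisons of obese mice with WT, from 0 to 7 in ob/ob vs. PPARγ2KO and from 0 to 5 in POKO vs. PPARγ2KO, and stayed at 0 in POKO vs. ob/ob, PPARγ2KO vs. WT and the interaction. The 9 in POKO vs. WT, the 7 and the 5 came without PPARγ2KO replicate 2. The replicate block gave 8 of 9 genes in ob/ob vs. WT (6.5% of all named genes) and 0 in the other comparisons. Same-numbered arrays did not deviate together (correlations -0.274 to 0.258 over 18 pairs, 5 above 0.1, and 4 of 12 arrays most like their own number), so the numbers were not taken to pair samples. Scaling to the 75th percentile moved the median log2 fold change over all probes from -0.08 to -0.19 in ob/ob vs. WT and left 9 of 9 genes (7.75% of all named genes). The other alternatives kept each count within 1.5 times. Dim probes limit the folds of Ciita, H2-Oa, H2-Ob and H2-DMb2.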
